A study of Mus musculus with 19 samples.

Results

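BAP1 knockout clone 1 is 1 of 4 clones of Melan-a, an immortalised and non-tumorigenic line of mouse melanocytes, in which Bap1 was targeted by CRISPR. It is compared here with the parental Melan-a cells in which Bap1 was left intact (WT). Clone 1 has 2 cultures and WT has 2, so the comparison uses 4 of the 10 bulk RNA libraries and 4 of the 19 samples of the series, and 10803 of the 13202 genes listed for them. The other 6 libraries, 2 cultures each of knockout clones 2, 3 and 4, entered the fit to estimate the spread between cultures and served as a second comparison. No drug was given to any line, the labels put all 10 libraries in one batch, and the RNA was polyadenylated RNA of cultured cells sequenced as stranded libraries. Clone 1 is a single clone, so what the knockout did and what this clone carried for other reasons cannot be told apart, and no edited clone that kept Bap1 is among the groups. The labels call the 2 cultures of each line biological replicates but do not say that they were raised separately, so every p-value measures the spread between these cultures, which may be technical.

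BAP1 is a nuclear deubiquitinase. It removes ubiquitin from histone H2A at the site that Polycomb repressive complex 1 marks, acting with an ASXL partner, and its complexes also hold HCF1, OGT and the FOXK factors that bring it to DNA. In uveal melanoma, a tumour of the melanocytes of the eye, its loss marks the tumours that most often spread.

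Read counts were recovered from the deposited values and are given as scaled reads, which are reads divided by the size factor of their library. The libraries of clone 1 held 46.8 and 31.8 M reads over the listed genes, and those of WT 37.9 and 40.6 M. Sampling noise alone gives a chi-square that averages about 1 per gene, with a median below that average. Averaged over genes, the chi-square was 68.4 between the 2 cultures of clone 1 and 2.41 between the 2 WT cultures. The medians were 8.35 and 0.961, in the same order. By the averages both pairs of cultures differed by more than sampling noise, those of clone 1 far more than those of WT. The WT cultures were therefore kept as 2 samples. A difference below is clone 1 minus WT on the deposited log2-like scale, which flattens at low counts and so understates the change of weakly expressed genes, and is given ± SE with n = 2 cultures a group. A gene is said to rise, fall or be called only where the limma adjusted p was under 0.05.

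Bap1 itself was low in both cultures of clone 1. It had 753 and 655 scaled reads in clone 1, against 4449.7 and 4392 in WT. No culture of clone 1 came near a WT culture, and clone 1 kept 15.9% of the WT level (difference -2.38 ± 0.12, limma adjusted p = 5.98e-06). Clone 1 lay between the other knockouts: the difference from WT was -1.85 in clone 2, -1.79 in clone 3 and -2.94 in clone 4. The reads do not show whether a protein is made from what remained. Here and for every gene below, fewer cells with the transcript and less of it in each cell cannot be told apart. The call of Bap1 held under each alternative run.

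The neighbour that shares the Bap1 promoter fell too, in clone 1 and not in the other clones. Phf7 encodes a PHD-finger protein known in mice as a reader of histone marks and a ubiquitin ligase of the male germ line. On chromosome 14 of build GRCm38.p6 the starts in the RefSeq promoter table of Phf7, at 31251315 on the minus strand, and Bap1, at 31251489 on the plus strand, lie head to head with 173 bases between them. The RefSeq gene spans lie closer together, with that of Phf7 ending at 31251344 and that of Bap1 starting at 31251352. The RefSeq sequence is shown because the edited gene and its neighbour are both transcribed out of it. It is chr14:31251239-31251538, on the plus strand, with the Phf7 start, the Bap1 start and the bases between them in capitals. It holds 50 CG dinucleotides, against a median of 22 in the promoters of the genes tested (quartiles 15 and 30).
Bap1: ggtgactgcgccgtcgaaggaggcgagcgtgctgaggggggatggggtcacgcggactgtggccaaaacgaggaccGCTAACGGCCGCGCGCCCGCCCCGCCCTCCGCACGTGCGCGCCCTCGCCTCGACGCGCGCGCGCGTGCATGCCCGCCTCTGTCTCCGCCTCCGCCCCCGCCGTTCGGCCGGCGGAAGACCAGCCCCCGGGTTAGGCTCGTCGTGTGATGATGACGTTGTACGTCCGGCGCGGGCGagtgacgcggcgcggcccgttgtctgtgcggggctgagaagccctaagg

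Phf7 had 88.4 and 71 scaled reads in clone 1, against 200.1 and 226 in WT (difference -0.71 ± 0.12, limma adjusted p = 0.00873). Both cultures of clone 1 lay below both WT cultures, as in every gene called lower. In the other knockouts Phf7 was at or above the WT level: clone 2 had 258 and 229 scaled reads, clone 3 had 273 and 356 and clone 4 had 336 and 322. Clone 1 minus the mean of those clones was -1.0 ± 0.10 (limma adjusted p = 6.16e-05). Phf7 lost its call without 1 WT library or culture 2 of clone 1 (largest limma adjusted p = 0.139). Of the 4 other tested genes nearest upstream of Bap1 and the 5 nearest downstream, Nt5dc2 (-0.58 ± 0.12, limma adjusted p = 0.033) and Sh3bp5 (-0.59 ± 0.12, limma adjusted p = 0.0282) were also called lower, and both were below WT in clones 2, 3 and 4 as well, with differences of -0.50 to -1.0. The gene for the chromatin protein Pbrm1 stood at 0.05, Nisch at 0.17 and Capn7 at -0.03, none of them called. Nt5dc2 lost its call without 1 WT library, culture 1 of clone 1, culture 2 of clone 1 or 1 clone 3 library (largest limma adjusted p = 0.313). Sh3bp5 lost its call without 1 WT library, culture 1 of clone 1, culture 2 of clone 1 or 1 clone 3 library (largest limma adjusted p = 0.26).

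Clone 1 changed few genes, and more fell than rose. Of 10803 genes tested, 378 were called (3.5%): 124 higher (1.15%) and 254 lower (2.35%). The median difference of a called gene was 0.66 among those that rose and -0.69 among those that fell, while over all genes tested the median was -0.02 with quartiles of -0.14 and 0.11. Differences of at least 1 were reached by 22 genes that rose and 52 that fell. All 378 had both cultures of clone 1 beyond both WT cultures, but so did 23.9% of all genes tested on the high side and 30.1% on the low side. Quantile normalization moved the split: 196 higher and 261 lower, so 42.9% of its calls were higher, against 32.8% above. The count rests on both WT cultures, on culture 2 of clone 1 and on the other clones' spread: 57 and 61 genes were called without WT replicate 1 and 2, 157 without culture 2 of clone 1, 194 without either clone 3 library and 639 and 635 without clone 4 replicate 1 and 2.

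**Figure D1:**
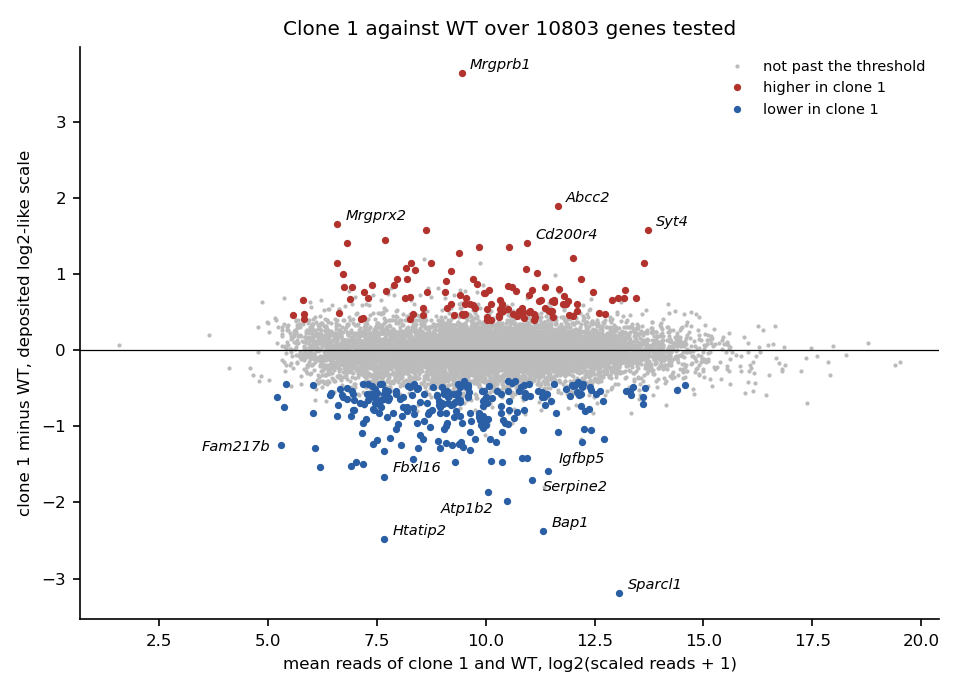
Each point is 1 of the 10803 genes tested; the horizontal axis is the mean level of clone 1 and WT as log2(scaled reads + 1) and the vertical axis is clone 1 minus WT on the deposited log2-like scale. Red points are the 124 genes called higher in clone 1 and blue points the 254 called lower; Mrgprb1 at 3.64 and Sparcl1 at -3.19 lie farthest out.

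Receptors and transporters of membranes were among the largest rises. Mrgprb1, a Mas-related G protein-coupled receptor, had 1510.1 and 1267 scaled reads in clone 1, against 6.7 and 6.2 in WT. Both cultures of clone 1 were far above the trace seen in WT, with 2051 and 1125 reads before scaling, against 7 and 7 in WT, a ratio of 221 (95% interval 131 to 404, counting error only). Its relative Mrgprx2, next to it on chromosome 7, had 209 and 168 scaled reads in clone 1, against 1.0 and 3.5 in WT, a ratio of 84.3 (35.8 to 261). The differences were 3.64 ± 0.12 and 1.66 ± 0.12, with limma adjusted p = 2.43e-07 for Mrgprb1 and 0.000101 for Mrgprx2. Reads of such close relatives may be split between them by the authors' counting, so the 2 values are not independent. Mrgprb1 was not particular to clone 1: clone 2 had 9042 and 8418 scaled reads, clone 3 had 1214 and 1001 and clone 4 had 18.4 and 10.1.

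The RefSeq promoters of the pair are shown because the genes rose together from near 0. Both are on the minus strand of GRCm38.p6, Mrgprb1 at chr7:48456293-48456592 and Mrgprx2 at chr7:48499221-48499520, printed 5′ to 3′ with matches to AAGATGG, the core of the YY1 motif, and to TGANTCA, the AP-1 motif, in capitals.
Mrgprb1: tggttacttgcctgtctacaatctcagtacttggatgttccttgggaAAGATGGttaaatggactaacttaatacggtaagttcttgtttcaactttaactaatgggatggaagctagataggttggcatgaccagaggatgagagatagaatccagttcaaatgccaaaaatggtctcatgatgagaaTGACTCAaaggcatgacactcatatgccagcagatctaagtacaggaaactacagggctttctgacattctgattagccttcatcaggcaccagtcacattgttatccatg
Mrgprx2: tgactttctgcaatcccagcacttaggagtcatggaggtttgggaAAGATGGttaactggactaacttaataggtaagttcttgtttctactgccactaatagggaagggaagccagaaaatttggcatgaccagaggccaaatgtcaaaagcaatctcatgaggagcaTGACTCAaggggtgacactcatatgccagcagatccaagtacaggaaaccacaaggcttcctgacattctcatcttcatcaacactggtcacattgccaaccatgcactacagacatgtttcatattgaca

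The AAGATGG and TGACTCA matches begin 203 and 61 bases before the start in Mrgprb1 and 205 and 81 bases before it in Mrgprx2, and the longest run of identical bases in the 2 promoters is 23. Matches to both motifs, on either strand, stood in 38 of 8756 promoters of genes tested (0.434%). Among the motifs counted below these are the ones that both promoters hold, so the share is no test of rarity. The promoters resemble each other, so their matches are not independent. The Mrgprb1 promoter holds 1 CG dinucleotide and the Mrgprx2 promoter 0. A match is a run of letters and says nothing of whether a factor binds.

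A transporter, a channel and a vesicle protein followed. Abcc2, the multidrug resistance-associated protein that exports conjugated compounds, had 5088 and 5273 scaled reads in clone 1, against 1281 and 1244 in WT (1.89 ± 0.10, limma adjusted p = 6.08e-06). Its cultures differed by less than the step to WT, and the gene was also above WT in clones 2, 3 and 4 (2.25, 2.64 and 2.02). Mcoln3, a cation channel of endosomes and lysosomes, had 714 and 622 scaled reads in clone 1, against 130.5 and 116 in WT (1.58 ± 0.13, limma adjusted p = 0.00016). Syt4, a synaptotagmin of secretory vesicles, had 18889 and 21849 scaled reads in clone 1, against 6628 and 6703 in WT (1.58 ± 0.15, limma adjusted p = 0.000415). Those 2 genes ran the other way in clone 3, where Mcoln3 stood at -1.01 and Syt4 at -4.97 against WT. Atp6v0d2, a subunit of the proton pump of acidic organelles, rose as well and its cultures were farther apart (2519 and 1872 scaled reads in clone 1, against 731 and 759 in WT).

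Among the 14 largest rises were also secreted and signalling genes. Adamtsl5, a matrix protein related to the ADAMTS proteases, had 264 and 458 scaled reads in clone 1, against 49.5 and 45.8 in WT (1.45 ± 0.16). Htra3, a secreted serine protease, had 506 and 797 scaled reads in clone 1, against 216 and 189 in WT (1.14 ± 0.16). Gask1b, a kinase-like protein of the Golgi, had 15763 and 19658 scaled reads in clone 1, against 7950.4 and 7767 in WT (1.14 ± 0.15). Tec, a non-receptor tyrosine kinase, had 1517 and 1279 scaled reads in clone 1, against 456 and 427 in WT (1.35 ± 0.17). In each of these 4 genes both cultures of clone 1 were above both WT cultures, which the choice of the largest rises required. Cd200r4, of the family of CD200 receptors, had 2646 and 3229 scaled reads in clone 1, against 960.5 and 1012 in WT (1.41 ± 0.13, limma adjusted p = 0.000366). Firre, a long noncoding RNA of the X chromosome that stays in the nucleus, had 4840.4 and 6737 scaled reads in clone 1, against 2237 and 2505 in WT (1.21 ± 0.20). It belongs to a list of nuclear and mitochondrial RNAs of which 5 were tested and 1 called, whose summed level was 68140 and 69654 scaled reads in clone 1, against 49483 and 55036 in WT; the part of RNA quality or of nuclear RNA in the result was not tested. Skint2 (1.41 ± 0.25) and Cyp3a41a (1.28 ± 0.14), a cytochrome P450, have near-identical relatives in the genome and their counts are uncertain. The call held under each alternative run that tested the gene for Mrgprb1, Abcc2, Mrgprx2, Mcoln3, Syt4, Adamtsl5, Cd200r4, Tec, Cyp3a41a and Gask1b. The stricter filter left Mrgprx2 and Adamtsl5 untested. Leaving out a library took the adjusted p past the threshold: without 1 WT library for Skint2, Atp6v0d2, Firre and Htra3, without culture 1 of clone 1 for Atp6v0d2, without culture 2 of clone 1 for Skint2, Atp6v0d2 and Firre, without 1 clone 2 library for Atp6v0d2, and without 1 clone 3 library for Atp6v0d2. The same happened with the stricter filter for Atp6v0d2 and with the 4 compared libraries alone for Htra3 (largest limma adjusted p of all these = 0.302, Atp6v0d2).

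**Figure D2:**
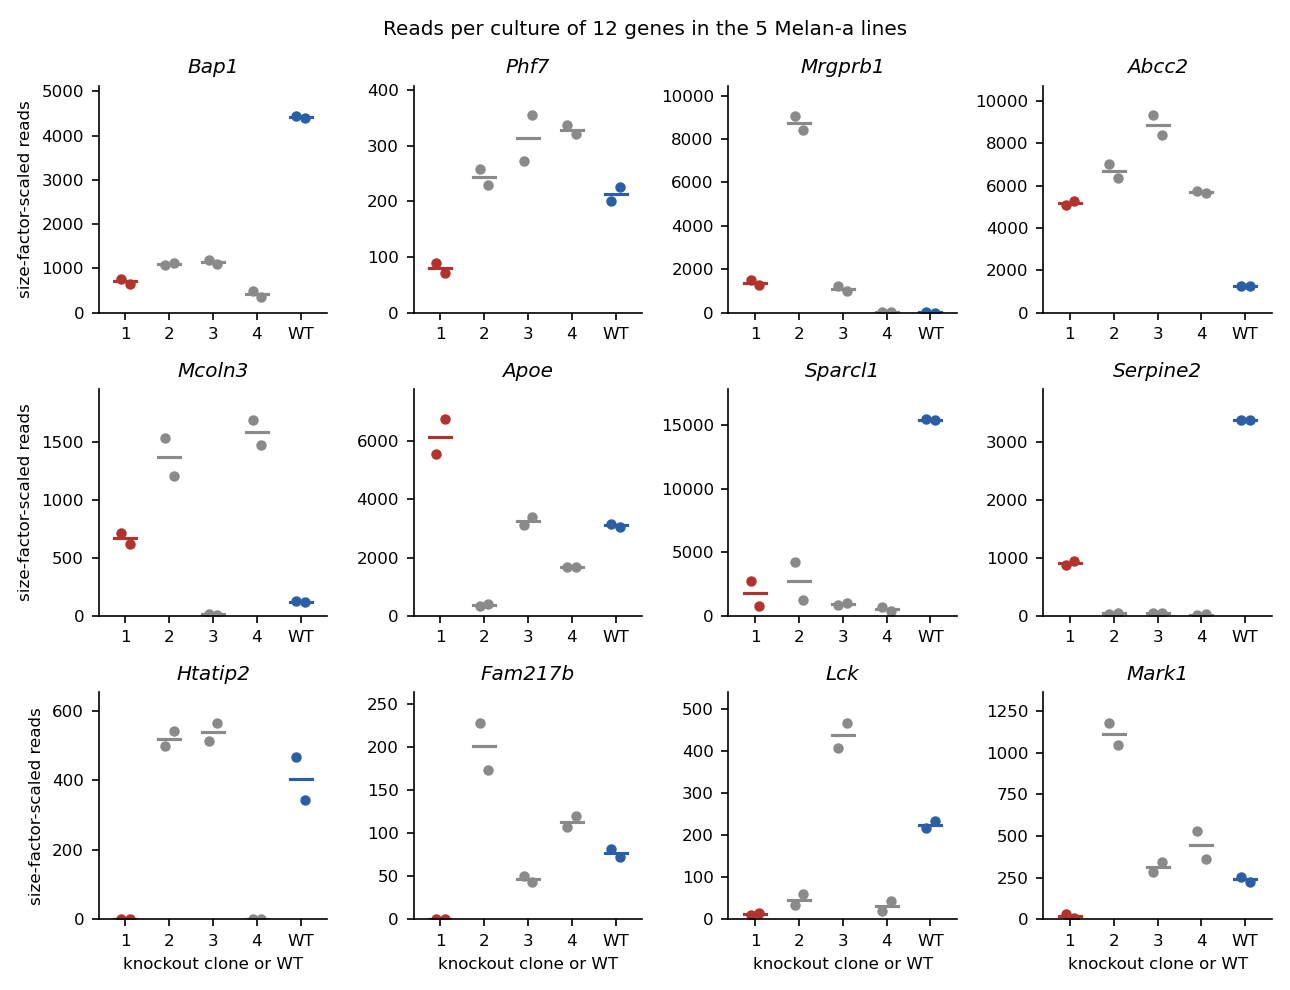
Each panel is 1 gene; the vertical axis is size-factor-scaled reads from 0, each point is 1 culture, the short line is the mean of 2 cultures, and the columns are clone 1 (red), clones 2, 3 and 4 (grey) and WT (blue). Bap1, Sparcl1 and Serpine2 were lower than WT in every clone, while Phf7, Fam217b and Mark1 were below WT in clone 1 alone by mean level, except that Fam217b was also below it in clone 3.

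Proteins of the cell surface and of the space around the cell were among the largest falls. Sparcl1, a matrix glycoprotein of the SPARC family, had 2772 and 803 scaled reads in clone 1, against 15455 and 15404 in WT (-3.19 ± 0.54, limma adjusted p = 0.01). Both cultures of clone 1 were far below both WT cultures, culture 2 at a lower level than culture 1. Serpine2, the inhibitor of thrombin and plasminogen activators also called protease nexin-1, had 876 and 944 scaled reads in clone 1, against 3389 and 3384 in WT (-1.71 ± 0.11, limma adjusted p = 2.38e-05). Igfbp5, which binds insulin-like growth factors, had 1422 and 1168 scaled reads in clone 1, against 4354 and 4136 in WT (-1.59 ± 0.22, limma adjusted p = 0.00419). In both genes the 2 cultures of clone 1 lay close together, well below WT. Atp1b2, the β2 subunit of the sodium-potassium pump, had 618 and 356 scaled reads in clone 1, against 2422 and 2352 in WT (-1.98 ± 0.24, limma adjusted p = 0.00173). Its isoform Atp1b1 moved the other way, with 1239.9 and 1063 scaled reads in clone 1, against 544 and 491 in WT (0.94 ± 0.12, limma adjusted p = 0.00245).

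Enzymes and signalling proteins filled most of the remaining places. B4galnt1, the enzyme that makes the gangliosides GM2 and GD2, had 26.5 and 18 scaled reads in clone 1, against 267 and 266 in WT (-1.49 ± 0.12). Hsd17b11, a dehydrogenase of lipid droplets, had 783 and 479.8 scaled reads in clone 1, against 1939 and 2116 in WT (-1.47 ± 0.17), and Capn1, the calcium-dependent protease calpain-1, had 254 and 259 scaled reads in clone 1, against 1002 and 1005 in WT (-1.47 ± 0.12). For these 3 enzymes the 2 cultures of clone 1 did not overlap WT, which the choice of the largest falls required. Lck, a Src-family kinase best known in T cells, had 9.6 and 14.6 scaled reads in clone 1, against 216 and 233 in WT (-1.52 ± 0.14), and Fbxl16, an F-box protein, had 37.6 and 29.3 scaled reads in clone 1, against 356 and 386 in WT (-1.66 ± 0.10). Mark1, a kinase that acts on microtubule-associated proteins, had 29.5 and 7.9 scaled reads in clone 1, against 252 and 224 in WT (-1.47 ± 0.16). Each of those 3 was left at a small share of its WT level: 5.39% for Lck, 9.0% for Fbxl16 and 7.83% for Mark1. Ccdc152 had 481 and 254 scaled reads in clone 1, against 1581 and 1919.7 in WT (-1.86 ± 0.21); its RefSeq span overlaps that of Selenop by 412 bases, and B4galnt1 likewise overlaps Slc26a10 and Mcoln3 overlaps Wdr63, so that part of their reads may belong to the other gene, since counting by strand is not stated. Htatip2, Bap1, Atp1b2, Ccdc152, Serpine2, Fbxl16, Ttc39c, Lck, B4galnt1, Mark1, Hsd17b11 and Capn1 passed the threshold under each alternative run that tested them. The stricter filter left Htatip2, Fbxl16, Ttc39c, Lck and B4galnt1 untested. The call was lost without 1 WT library for Sparcl1 and Igfbp5. It was also lost with the 4 compared libraries alone for Sparcl1 (largest limma adjusted p of all these = 0.087, Sparcl1).

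A few genes with reads in both WT cultures were at or near 0 in both cultures of clone 1. Fam217b had 0 reads in both cultures of clone 1, against 85 and 82 reads in WT. Against a floor of 3 reads over the group it was at least 57.2-fold lower. Htatip2, an oxidoreductase described as a tumour suppressor, had 2 and 0 reads in clone 1, against 489 and 389 in WT, which is 0.222% of the WT level (95% interval 0.0268 to 0.803%, counting error only). Ttc39c had 4 and 0 reads in clone 1, against 167 and 145 in WT (1.25%, 0.338 to 3.23%). H2-DMb1, a subunit of the chaperone that loads peptide on MHC class II, had 6 and 3 reads in clone 1, against 141 and 139 in WT (3.13%, 1.42 to 6.02%). Fitted differences for these 4 were -1.24 ± 0.11, -2.48 ± 0.13, -1.53 ± 0.14 and -1.29 ± 0.12, all with limma adjusted p of at most 0.000381. Their calls held under each alternative run that tested them, but the stricter filter left all 4 out.

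Fam217b and Ttc39c had reads in every other knockout, while Htatip2 and H2-DMb1 were at 0 in clone 4 too. The scaled reads of Fam217b were 228 and 174 (clone 2), 50.2 and 42.8 (clone 3) and 107 and 119.8 (clone 4). Those of Ttc39c were 77 and 77.6 (clone 2), 113 and 168 (clone 3) and 108 and 78.2 (clone 4). Neither was near 0 in any culture outside clone 1. For Htatip2, clone 2 had 498 and 541, clone 3 had 512 and 565 and clone 4 had 0 and 0. For H2-DMb1 the reads numbered 312 and 298 (clone 2), 42.9 and 84.4 (clone 3) and 0 and 0 (clone 4). Htatip2 was near its WT level in clones 2 and 3, and H2-DMb1 was above its WT level in clone 2 and below it in clone 3.

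The RefSeq promoters of 3 of them are printed because genes near 0 in a whole clone invite a look at their CG content, with each CG in capitals. All are on the plus strand of GRCm38.p6: Fam217b at chr2:178414284-178414583, Htatip2 at chr7:49758856-49759155 (the first of 2 starts in the table) and H2-DMb1 at chr17:34152941-34153240.
Fam217b: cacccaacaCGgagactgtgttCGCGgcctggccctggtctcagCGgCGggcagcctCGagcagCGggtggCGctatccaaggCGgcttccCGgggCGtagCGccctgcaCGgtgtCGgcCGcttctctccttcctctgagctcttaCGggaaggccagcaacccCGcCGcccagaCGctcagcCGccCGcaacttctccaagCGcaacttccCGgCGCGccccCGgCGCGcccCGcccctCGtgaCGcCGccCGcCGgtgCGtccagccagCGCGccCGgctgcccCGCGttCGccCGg
Htatip2: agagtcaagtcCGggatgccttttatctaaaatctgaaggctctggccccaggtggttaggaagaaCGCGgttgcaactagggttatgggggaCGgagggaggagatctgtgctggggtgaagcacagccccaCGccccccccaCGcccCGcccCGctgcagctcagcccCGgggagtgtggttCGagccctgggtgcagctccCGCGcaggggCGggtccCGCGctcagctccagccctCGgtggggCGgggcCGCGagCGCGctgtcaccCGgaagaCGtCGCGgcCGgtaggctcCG
H2-DMb1: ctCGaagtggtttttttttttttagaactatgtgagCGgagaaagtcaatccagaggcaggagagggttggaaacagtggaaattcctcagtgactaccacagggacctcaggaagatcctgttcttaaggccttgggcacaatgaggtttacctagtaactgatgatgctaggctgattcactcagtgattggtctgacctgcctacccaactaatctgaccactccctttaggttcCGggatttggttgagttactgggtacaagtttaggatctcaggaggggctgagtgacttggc

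The CG counts were 42 in Fam217b, 27 in Htatip2 and 3 in H2-DMb1, beside the median of 22 over the genes tested, so the 3 promoters have no CG density in common. Methylation was not measured in these libraries.

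Gene lists of pathways, complexes and cell types were read by their called members. They hold 1035 tested genes, of which 78 were called (7.54%, against 3.5% of all genes tested), 28 higher and 50 lower; the lists were put together with earlier results of these data known, so the higher share says nothing about pathways. Of 57 lists 22 had no called member.

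**Figure D3:**
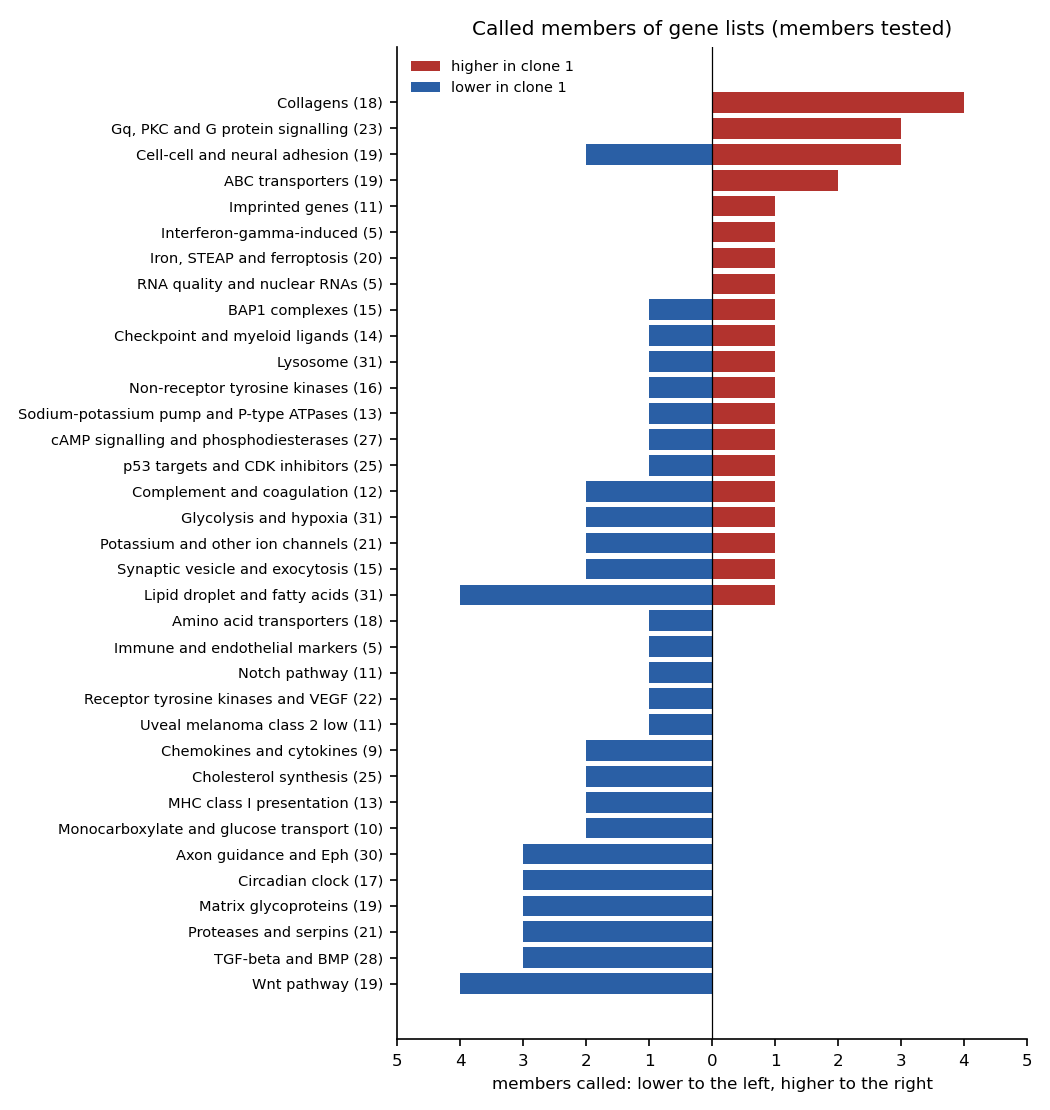
Bars give, for each list with at least 1 called member, the number of members called higher in clone 1 (red, to the right) and lower (blue, to the left), with the number of members tested in brackets after the name. Collagens carry 4 higher and none lower, and the Wnt pathway 4 lower and none higher.

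Within the complexes of BAP1 2 of 15 tested members were called. Ogt, the enzyme that adds O-GlcNAc and a partner of BAP1, had 6556 and 7667 scaled reads in clone 1, against 3924 and 4311 in WT (0.76 ± 0.16, limma adjusted p = 0.0337), and Bap1 was the other. The partners Asxl1 (0.04), Hcfc1 (0.08), Foxk1 (0.07) and Foxk2 (-0.02) were not called, nor was any of 29 members of the Polycomb complexes (median 0.01). Ogt lost its call without 1 WT library, culture 2 of clone 1 or 1 clone 3 library (largest limma adjusted p = 0.316).

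Among matrix genes the calls were up in the collagens and down in the glycoproteins, a difference between lists that was not tested. Of 18 tested collagens and collagen enzymes, 4 rose and none fell (median 0.12): Col14a1 had 2599.9 and 2802 scaled reads in clone 1, against 1236 and 1164 in WT (1.06 ± 0.15), Col11a1 307 and 706 scaled reads in clone 1, against 142 and 162 in WT (1.05 ± 0.22), Col20a1 722 and 788 scaled reads in clone 1, against 319 and 327 in WT (0.91 ± 0.19) and Col11a2 499 and 596 scaled reads in clone 1, against 251 and 258 in WT (0.77 ± 0.14). Col11a1 and Col11a2 encode chains of the fibrillar collagen XI, and Col14a1 and Col20a1 collagens that attach to fibrils. Their limma adjusted p ran from 0.00476 to 0.0325. The basement membrane chains Col4a1 (-0.37) and Col4a2 (-0.31) were not called. Col24a1, a collagen gene outside the list, also rose. It lost its call without 1 WT library, without culture 2 of clone 1 and with the 4 compared libraries alone. Of 19 tested matrix glycoproteins 3 fell and none rose (median -0.21): Sparcl1, Igfbp5 and Sparc, which had 19437 and 15977 scaled reads in clone 1, against 25726 and 24994 in WT (-0.52 ± 0.11, limma adjusted p = 0.0362). Of 21 proteases and inhibitors 3 fell and none rose: Serpine2, the membrane protease Mmp14 (-0.53 ± 0.10) and the sheddase Adam19 (-0.82 ± 0.11). Among the libraries left out in turn, the call was lost without 1 WT library for all 7, without culture 1 of clone 1 for Col20a1, without culture 2 of clone 1 for Col11a1, Col20a1, Col11a2, Sparc and Mmp14, and without 1 clone 3 library for Col11a1, Col20a1, Sparc and Mmp14. Other settings that ended it were as follows: with quantile normalization for Sparc, with limma-voom for Col11a1, and with the 4 compared libraries alone for Col11a1 and Sparc (largest limma adjusted p of all these = 0.344, Sparc).

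Adhesion molecules went both ways. Mcam, a melanoma adhesion molecule of the immunoglobulin family, had 10434 and 13505 scaled reads in clone 1, against 6818 and 6796 in WT (0.79 ± 0.13), and Alcam (0.44 ± 0.10) and the guidance ligand Slit2 (0.83 ± 0.19) also rose. Cadm1 had 492 and 233 scaled reads in clone 1, against 1003 and 1035 in WT (-1.21 ± 0.25) and Cadm4 2048 and 2350.4 scaled reads in clone 1, against 4015 and 4051 in WT (-0.82 ± 0.15), both cell adhesion molecules that fell. That is 3 higher and 2 lower of 19 tested. Of 30 tested axon guidance and Eph genes 3 fell and none rose, the ephrins Efna2 (-0.46 ± 0.10) and Efna3 (-0.63 ± 0.15) and the semaphorin Sema6a (-0.57 ± 0.12), with a median of -0.24; under quantile normalization 2 genes of this list fell. Leaving out a library took the adjusted p past the threshold: without 1 WT library for all 8, without culture 1 of clone 1 for Alcam, Cadm4, Efna2, Efna3 and Sema6a, without culture 2 of clone 1 for Mcam, Alcam, Slit2, Cadm1, Efna2, Efna3 and Sema6a, without 1 clone 2 library for Alcam, without 1 clone 3 library for Alcam, Slit2, Cadm1, Efna2, Efna3 and Sema6a, and without 1 clone 4 library for Efna3. The same happened with quantile normalization for Efna2 and Efna3, with the stricter filter for Alcam, Slit2 and Efna3, with limma without a trend for Alcam, and with the 4 compared libraries alone for Mcam, Alcam, Slit2, Cadm1, Efna2, Efna3 and Sema6a (largest limma adjusted p of all these = 0.427, Alcam).

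Of 19 tested genes of the Wnt pathway 4 fell and none rose, and the median of the 19 was -0.36, against -0.02 over all genes tested. Fzd7, a Frizzled receptor, had 8179.5 and 8109.8 scaled reads in clone 1, against 12260.1 and 12519 in WT (-0.59 ± 0.10, limma adjusted p = 0.0118). Fzd4, another Frizzled, had 465 and 372 scaled reads in clone 1, against 727 and 639 in WT (-0.54 ± 0.11). Sfrp1, a secreted antagonist that binds Wnt ligands, had 644 and 541 scaled reads in clone 1, against 1229 and 1243 in WT (-0.88 ± 0.18), and Porcn, the acyltransferase that Wnt ligands need for secretion, had 507 and 412 scaled reads in clone 1, against 741 and 798 in WT (-0.58 ± 0.12). The 4 thus include an antagonist beside receptors. Axin2, a target gene of the pathway, had 1642 and 1719 scaled reads in clone 1, against 1527 and 1489 in WT and was not called (0.14 ± 0.10, limma adjusted p = 0.541). The call was lost without 1 WT library for all 4, without culture 2 of clone 1 for all 4, and without 1 clone 3 library for Sfrp1, Fzd4 and Porcn. It was also lost with the 4 compared libraries alone for Fzd4 and Porcn (largest limma adjusted p of all these = 0.354, Fzd4).

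Other growth factor pathways had few calls. Of 28 tested TGF-beta and BMP genes 3 fell: the type I receptor Acvr1b (-0.54 ± 0.13), the ligand Bmp7 (-0.66 ± 0.10) and the target Id2, a dominant negative helix-loop-helix factor, which had 9457 and 9344 scaled reads in clone 1, against 15445 and 15489 in WT (-0.71 ± 0.14). Id2 is also the 1 called gene of the 11 tested that class 2 uveal melanomas express at low level. Of 22 tested receptor tyrosine kinases and VEGF genes, Kdr, the VEGF receptor 2, fell, with 127 and 85.6 scaled reads in clone 1, against 516 and 548 in WT (-1.43 ± 0.12, limma adjusted p = 0.00016). Notch1 (-0.83 ± 0.19) was the 1 of 11 Notch genes called. Csf1, the macrophage growth factor, had 867 and 904 scaled reads in clone 1, against 1912 and 1874 in WT (-0.96 ± 0.21), and Lifr, the receptor of leukaemia inhibitory factor, had 96.5 and 74.3 scaled reads in clone 1, against 355 and 360.0 in WT (-1.15 ± 0.10, limma adjusted p = 0.000233). The call held for Kdr and Lifr under each alternative run that tested them, but the stricter filter left both out. Calls ended without 1 WT library for Acvr1b, Bmp7, Id2, Notch1 and Csf1, without culture 1 of clone 1 for Notch1 and Csf1, without culture 2 of clone 1 for Acvr1b, Id2 and Csf1, and without 1 clone 3 library for Acvr1b, Id2, Notch1 and Csf1. They also ended with the stricter filter for Acvr1b and Notch1 and with the 4 compared libraries alone for Acvr1b and Notch1 (largest limma adjusted p of all these = 0.363, Acvr1b).

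The transporter of peptides for MHC class I fell as a pair. Tap1 had 205 and 144 scaled reads in clone 1, against 589.8 and 564 in WT (-1.16 ± 0.14, limma adjusted p = 0.00173) and Tap2 had 369.6 and 395 scaled reads in clone 1, against 1218 and 1188 in WT (-1.31 ± 0.10, limma adjusted p = 0.000101). They are the subunits of one transporter of the endoplasmic reticulum and were the called members of 13 tested for class I presentation (median -0.20). The class I heavy chain H2-D1 had 1176 and 1631 scaled reads in clone 1, against 2189.6 and 2361 in WT (-0.65) and B2m had 36761 and 27068 scaled reads in clone 1, against 41387 and 41057 in WT (-0.38), neither called, and H2 genes resemble each other closely, so their counts are uncertain. None of 14 type I interferon-stimulated genes was called. Of 5 tested genes induced by interferon-gamma, the guanylate-binding protein Gbp2 rose, with 451 and 322 scaled reads in clone 1, against 191 and 171 in WT (0.69 ± 0.13). In the complement and coagulation list the clotting inhibitor Tfpi rose (0.66 ± 0.14), while Pros1, the cofactor of protein C, had 833 and 422 scaled reads in clone 1, against 1559 and 1556 in WT (-1.16 ± 0.20) and C4b, whose reads may be shared with a near copy, had 708 and 619 scaled reads in clone 1, against 1792 and 1713 in WT (-1.20 ± 0.19). Tap1 and Tap2 passed the threshold under each alternative run. Among the libraries left out in turn, the call was lost without 1 WT library for Gbp2, Tfpi, Pros1 and C4b, without culture 1 of clone 1 for Gbp2, without culture 2 of clone 1 for Tfpi, and without 1 clone 3 library for Tfpi. Other settings that ended it were as follows: with quantile normalization for Tfpi and with the 4 compared libraries alone for Gbp2 and Pros1 (largest limma adjusted p of all these = 0.256, Tfpi).

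In the circadian clock list 3 genes fell and none rose among 17 tested (median -0.14), and 2 fell under quantile normalization. Dbp, a PAR bZIP factor and a standard readout of the circadian clock, had 963 and 852 scaled reads in clone 1, against 2735 and 2741 in WT (-1.42 ± 0.12, limma adjusted p = 0.000233). Tef, of the same family, had 4547 and 3288 scaled reads in clone 1, against 6698 and 6759 in WT (-0.77 ± 0.18), and Nr1d1, the repressor REV-ERBα, had 694 and 559.7 scaled reads in clone 1, against 1373 and 1295 in WT (-0.92 ± 0.13, limma adjusted p = 0.00483). In all 3 the cultures of clone 1 lay below those of WT, as in every gene called lower. The core gene Clock (-0.14), Per1 (0.09), Per2 (-0.31) and Cry1 (0.25) were not called. The hour at which each culture was taken is not given, and its part in the result was not tested. The RefSeq spans of Dbp and Nr1d1 overlap those of Sphk2 and Thra. Under each alternative run Dbp remained past the threshold. Leaving out a library took the adjusted p past the threshold: without 1 WT library for Tef and Nr1d1, without culture 2 of clone 1 for Tef, without 1 clone 3 library for Tef, and without 1 clone 4 library for Tef. The same happened with quantile normalization for Tef, with the stricter filter for Tef, and with the 4 compared libraries alone for Tef (largest limma adjusted p of all these = 0.299, Tef).

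Of 31 tested genes of lipid droplets and fatty acids 4 fell and 1 rose, with a median of -0.24. Dgat2, which makes triglyceride, had 40.5 and 51.8 scaled reads in clone 1, against 229.6 and 242 in WT (-1.09 ± 0.15), the hormone-sensitive lipase Lipe had 488 and 506 scaled reads in clone 1, against 847 and 785 in WT (-0.56 ± 0.12), Cpt1a, which admits fatty acids to mitochondria, had 2056 and 1713 scaled reads in clone 1, against 2842 and 2751 in WT (-0.53 ± 0.12), and Hsd17b11 is given above. The riser was Apoe, the lipid-carrying apolipoprotein, with 5564 and 6758 scaled reads in clone 1, against 3157 and 3056 in WT (0.94 ± 0.12, limma adjusted p = 0.0024). In cholesterol synthesis 2 of 25 fell, the synthase Hmgcs1 (-0.54 ± 0.12) and Insig1, which holds back its activation (-0.48 ± 0.10). Npc1, the lysosomal cholesterol exporter, had 10210.2 and 9402 scaled reads in clone 1, against 15230.1 and 15007 in WT (-0.62 ± 0.12). The RefSeq span of Npc1 overlaps that of Rmc1 by 8982 bases, so part of its reads may belong to Rmc1. The call held under each alternative run for Hsd17b11 and Apoe. The call was lost without 1 WT library for Dgat2, Lipe, Cpt1a, Hmgcs1, Insig1 and Npc1, without culture 1 of clone 1 for Lipe and Insig1, without culture 2 of clone 1 for Lipe, Cpt1a, Hmgcs1, Insig1 and Npc1, and without 1 clone 3 library for Lipe, Cpt1a, Hmgcs1 and Insig1. It was also lost with the stricter filter for Hmgcs1 and with the 4 compared libraries alone for Lipe, Cpt1a, Hmgcs1 and Insig1 (largest limma adjusted p of all these = 0.343, Hmgcs1).

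Transport, metabolism and signalling lists held scattered calls. Of 19 ABC transporters 2 rose, Abcc2 and Abca12, which carries lipids in skin and had 1899.6 and 1914 scaled reads in clone 1, against 994 and 982 in WT (0.84 ± 0.10). Tfrc, the transferrin receptor that takes up iron, had 3434 and 3386 scaled reads in clone 1, against 1856 and 1828 in WT (0.83 ± 0.10, limma adjusted p = 0.002), the 1 call of 20 iron and ferroptosis genes. Slc7a2, which carries arginine and lysine, had 3677 and 2719.8 scaled reads in clone 1, against 6794 and 6507 in WT (-1.03 ± 0.15). Emb, a partner of lactate carriers, had 1047 and 959.5 scaled reads in clone 1, against 1586 and 1591 in WT (-0.58 ± 0.10), and the hexose carrier Slc2a6 also fell (-0.75 ± 0.12). Of 31 glycolysis and hypoxia genes, the oxidase Ero1a rose (0.60 ± 0.11) and Ldhb (-0.54 ± 0.12) and Ndrg1 (-0.50 ± 0.12) fell. Among the listed ion channels Kcnh2 (-0.97 ± 0.12) and Trpm4 (-0.66 ± 0.10) fell beside the rise of Mcoln3. The channel genes Kcnj4 and Hcn2, outside that list, also fell and are given below. Among synaptic vesicle genes Rab3d (-1.07 ± 0.15) and Sv2a (-1.07 ± 0.11) fell beside the rise of Syt4. Of the phosphodiesterases Pde10a rose (0.83 ± 0.17) and Pde1c fell (-0.68 ± 0.13). The kinases Prkch (0.69 ± 0.16) and Ptk2b (-0.47 ± 0.10) and the imprinted factor Plagl1 (0.68 ± 0.15) complete the calls in these lists. Abca12, Tfrc, Kcnh2 and Sv2a passed the threshold under each alternative run. Calls ended without 1 WT library for Slc7a2, Emb, Slc2a6, Ero1a, Ldhb, Ndrg1, Trpm4, Rab3d, Pde10a, Pde1c, Prkch, Ptk2b and Plagl1, without culture 1 of clone 1 for Ldhb, Prkch and Ptk2b, without culture 2 of clone 1 for Emb, Ero1a, Ldhb, Ndrg1, Pde10a, Pde1c, Prkch, Ptk2b and Plagl1, without 1 clone 2 library for Ndrg1, Prkch and Plagl1, and without 1 clone 3 library for Ldhb, Ndrg1, Pde10a, Pde1c, Prkch, Ptk2b and Plagl1. They also ended with quantile normalization for Ndrg1 and Ptk2b, with limma-voom for Ndrg1, with the stricter filter for Ndrg1, Prkch and Plagl1, and with the 4 compared libraries alone for Slc7a2, Ero1a, Ldhb, Ndrg1, Pde10a, Pde1c, Prkch, Ptk2b and Plagl1 (largest limma adjusted p of all these = 0.367, Ndrg1).

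The inhibitor p21 was lower in clone 1. Cdkn1a, which encodes it and is a standard p53 target, had 1148 and 1005 scaled reads in clone 1, against 2154 and 2126 in WT (-0.89 ± 0.11, limma adjusted p = 0.00226). Mdm2, the ubiquitin ligase of p53 and also its target, had 2122 and 2213 scaled reads in clone 1, against 1612 and 1526 in WT and rose (0.42 ± 0.09, limma adjusted p = 0.0379). So 1 rose and 1 fell among 25 p53 targets and CDK inhibitors (median -0.07). No gene of 40 S phase genes (median 0.13) or of 37 mitosis genes (median 0.26) was called; with quantile normalization 2 mitosis genes were called higher. Under each alternative run Cdkn1a remained past the threshold. Mdm2 lost its call without 1 WT library, culture 1 of clone 1, culture 2 of clone 1, 1 clone 3 library or clones 2, 3 and 4 in the fit (largest limma adjusted p = 0.368).

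Melanocyte identity and the large housekeeping programmes had no called member. Of 30 tested pigmentation and melanosome genes and 22 melanocyte regulators none was called in the deposited values (medians -0.04 and 0.02), with 1 pigmentation gene called lower under quantile normalization. All 12 melanocyte markers were listed with reads in every library of clone 1 and WT: Pmel had 674070.5 and 733037 scaled reads in clone 1, against 798064 and 776355 in WT, Dct had 500424 and 427854 scaled reads in clone 1, against 432989 and 429396 in WT, and Mitf, the master regulator of the lineage, had 21509 and 19930.3 scaled reads in clone 1, against 17269 and 17693 in WT. The summed marker level was 1849614 and 1901782 scaled reads in clone 1, against 2008359 and 1971234 in WT. In both cultures of clone 1 Pmel, Tyr, Mlana, Kit and Trpm1 lay below both WT cultures, and Mitf and Oca2 above both. The other markers overlapped WT. Of all genes tested, 30.1% lay below in that way and 23.9% above. Mlana had 72233 and 56143 scaled reads in clone 1, against 86264 and 85041 in WT, and Trpm1 had 45412 and 39013, against 58308 and 57061. None of the 12 was called. Likewise none was called of 52 cytosolic ribosomal proteins (median 0.08), 47 oxidative phosphorylation genes (-0.16), 31 genes of the unfolded protein and amino acid stress responses (0.05), 20 MAPK feedback genes (0.15) or 28 homologous recombination genes (-0.05). A simulated 2-fold change in the same design was recovered in 83 of 100 genes, so smaller changes in these lists could have been missed.

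Markers of other cell types were few. Of 11 fibroblast markers 3 were listed, with summed levels of 3101 and 3310 scaled reads in clone 1, against 3121 and 3158 in WT, nearly all from Col1a2. Of 12 keratinocyte markers 2 were listed (summed levels of 186 and 155 in clone 1, against 147 and 158 in WT), and of 15 immune and endothelial markers 8 (1752 and 1779 in clone 1, against 2138 and 2162 in WT), the endothelial Pecam1 having 3.7 and 6.8 scaled reads in clone 1, against 10.5 and 11.4 in WT. Kdr, named above, was the 1 called gene of these. Of 13 mast cell markers 2 were listed, Gata2 and Kit, which melanocytes use too (13887 and 12249 in clone 1, against 15542 and 15214 in WT). Whether rare other cells play a part in any result was not tested.

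Clone 1 next stood against the other knockouts, a comparison that uses no WT library. Genes that differed between clone 1 and the mean of clones 2, 3 and 4 numbered 2809 (26% of those tested), 1338 higher in clone 1 (12.4%) and 1471 lower (13.6%). Of the 378 genes called against WT, 202 also differed from the other clones (53.4% of the 378 and 7.19% of the 2809). The 2 comparisons share the clone 1 libraries. Genes that fell against WT but were above the other clones were the most numerous of these, 94, beside 43 that were below both; among genes that rose, 44 were above both and 21 were below the other clones. The count was 1010 without culture 1 of clone 1 and 1862 without clone 3 replicate 2. The balance of the 2 directions was not stable: without culture 1 of clone 1 it was 655 higher and 355 lower (64.9% higher, against 47.6% above), without clone 3 replicate 2 it was 1009 higher and 853 lower, with the libraries of the clones alone 1089 higher and 985 lower, and with no filter 1791 higher and 1563 lower.

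Some genes that fell in clone 1 fell much further in the other clones. Serpine2 had 876 and 944 scaled reads in clone 1, against 34.5 and 56.2 (clone 2), 54.4 and 45.1 (clone 3) and 22.9 and 24 (clone 4) in the other knockouts and 3389 and 3384 in WT. Clone 1 held an intermediate level (2.60 ± 0.09 against the other clones, limma adjusted p = 7.61e-08). Emb showed the same order, with 1047 and 959.5 in clone 1, against 44.3 and 40.1 (clone 2), 33.5 and 31.2 (clone 3) and 79.2 and 73.1 (clone 4) in the other knockouts (2.61 ± 0.08, limma adjusted p = 7.43e-08). Slc7a2 (2.14 ± 0.12) and Ndrg1 (2.13 ± 0.09), a stress-induced gene, were likewise below WT in clone 1 and farther below in clones 2, 3 and 4. Col14a1 was higher than WT in clone 1 and clone 4 (0.66) and lower in clone 2 (-1.69) and clone 3 (-2.70), so clone 1 exceeded the mean of the others by 2.30 ± 0.13.

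Other genes set clone 1 apart from every other line. With the grouping made after the values were seen, 35 genes (0.324% of those tested) were called against WT and, with the same sign, against each of clones 2, 3 and 4: 16 higher and 19 lower. Apoe had 5564 and 6758 scaled reads in clone 1, against 328 and 415 (clone 2), 3127 and 3380.1 (clone 3) and 1692 and 1677 (clone 4) in the other knockouts and 3157 and 3056 in WT. Clone 3 was near the WT level and clones 2 and 4 were below it, and clone 1 exceeded the mean of the other clones by 2.05 ± 0.10 (limma adjusted p = 8.27e-07). Cd200r4 (2.93 ± 0.11) and Slc26a7, an anion exchanger (2.68 ± 0.11), showed the largest margins over the mean of the other clones among the 16; Slc26a7 had 1436 and 1865 scaled reads in clone 1, against 955 and 1064 in WT (0.61 ± 0.14). Gbp2, Col11a1, Col24a1, Slco1a4, Plscr4, Tmem71, Morc3, Spag1, Slc25a27, Tchhl1, Ccdc134, Adamtsl5 and Gm7160 were the others of the 16. Among these others only Adamtsl5 kept its call against WT in each alternative run that tested it. The rest lost it in 1 run or more, Ccdc134 in 9 and Gm7160 in 10.

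The 19 genes that were lower than in every other line included a kinase, ion channel genes and a vesicle protein. Mark1 had 29.5 and 7.9 scaled reads in clone 1, against 1180.2 and 1046 (clone 2), 280.2 and 343 (clone 3) and 528 and 359 (clone 4) in the other knockouts and 252 and 224 in WT (-2.31 ± 0.13 against the other clones). Sv2a, a synaptic vesicle glycoprotein, had 1818 and 2216 scaled reads in clone 1, against 4522 and 4305 in WT (-1.07 ± 0.11; -1.35 ± 0.09 against the other clones). Kcnj4, an inward rectifier potassium channel, had 122 and 215 scaled reads in clone 1, against 392 and 362 in WT (-0.74 ± 0.15; -1.42 ± 0.13), and Tmem151a, a membrane protein, 53 and 46.2 scaled reads in clone 1, against 185 and 190.1 in WT (-0.86 ± 0.12; -1.74 ± 0.10). Hcn2, a pacemaker channel, had 135 and 120.5 scaled reads in clone 1, against 292 and 263 in WT (-0.64 ± 0.12), Cacnb3, a calcium channel subunit, 1976 and 2005 scaled reads in clone 1, against 3018 and 2988 in WT (-0.55 ± 0.11), and Psd2 11 and 11.3 scaled reads in clone 1, against 51.5 and 69.5 in WT (-0.62 ± 0.11; -1.28 ± 0.09). In all 7 genes both cultures of clone 1 lay below both WT cultures, as in every gene called lower. Htatip2 was below the mean of the other clones (-1.82 ± 0.10) but not below clone 4. Fam217b (-1.46 ± 0.09), Ttc39c (-1.28 ± 0.11), Cdkn1a, Phf7, Fbxl16, Fut11, Iglon5, Zfp981, N4bp2l1, Vwa5b2, Acaa2 and Cdc42se1 make up the rest. Apoe, Cd200r4, Mark1, Sv2a and Cdkn1a passed the threshold under each alternative run. So did Fam217b, Ttc39c, Fbxl16 and Zfp981, except that the stricter filter left them untested. The call was lost without 1 WT library for Slc26a7, Kcnj4, Tmem151a, Hcn2, Cacnb3 and Psd2, without culture 1 of clone 1 for Kcnj4 and Cacnb3, without culture 2 of clone 1 for Slc26a7, Hcn2, Cacnb3 and Psd2, and without 1 clone 3 library for Slc26a7, Kcnj4 and Cacnb3. It was also lost with the 4 compared libraries alone for Slc26a7, Kcnj4 and Psd2 (largest limma adjusted p of all these = 0.354, Slc26a7). Phf7, Fut11, Iglon5, N4bp2l1, Vwa5b2, Acaa2 and Cdc42se1 also lost the call against WT in 1 run or more.

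**Figure D4:**
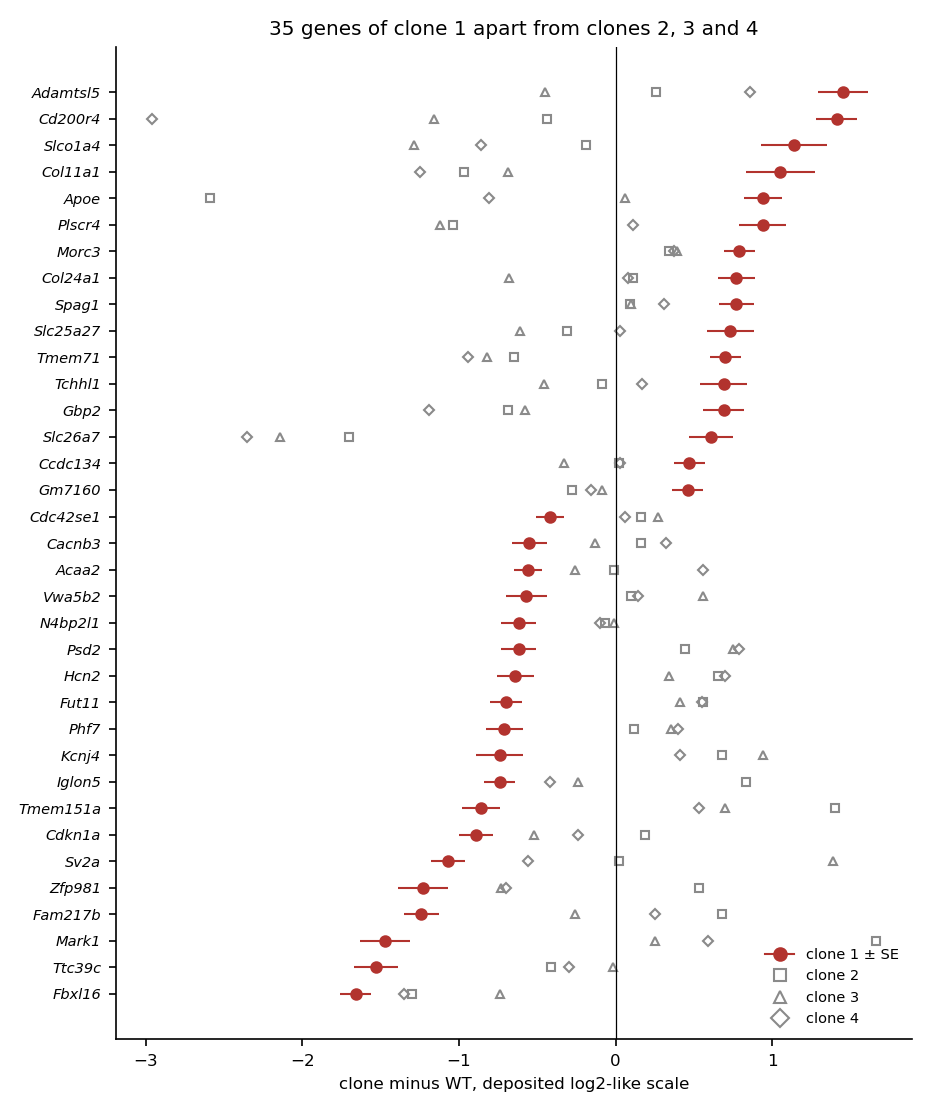
Rows are the 35 genes called in clone 1 against WT and, with that sign, against each of clones 2, 3 and 4; the horizontal axis is the difference of each clone from WT on the deposited log2-like scale, with clone 1 in red ± SE and the other clones in grey. The selection puts clone 1 at one end of every row, and Slc26a7 and Cd200r4 lie far above the nearest other clone.

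The 2 cultures of clone 1 were also read apart, each taken to vary like the libraries of the other lines. Culture 1 differed from WT in 157 genes (1.45%), 44 higher (0.407%) and 113 lower (1.05%), and culture 2 in 379 (3.51%), 133 higher (1.23%) and 246 lower (2.28%), of which 118 were shared with one sign (75.2% of the 157 and 31.1% of the 379). Both sets of calls share the WT libraries. The numbers varied widely with the libraries kept, from 43 to 517 in culture 1 and from 100 to 1049 in culture 2. Among the 378 genes of the joint comparison no gene had opposite signs in the 2 cultures. That follows from both cultures of each called gene lying beyond both WT cultures, so it is no separate result. Of the 378, 240 were farther from WT in culture 2. The share over all genes tested was not counted, so this number says nothing particular to the called genes.

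Between the cultures themselves limma called 0 genes (0% of those tested, smallest adjusted p = 0.124), although 1107 had an unadjusted p under 0.05, and limma-voom on the recovered reads called 0 as well, with 1155 at an unadjusted p under 0.05. Culture 1 was the deeper library. A simulated 2-fold difference between cultures was recovered in 50 of 100 genes and a 4-fold one in 94, so this test misses many differences of the smaller size. Without either clone 2 library 14 genes were called: Slc24a3, Sod3, Otog, Flrt2, Dpys and Myc were higher in culture 2, and Plat, S100b, Fyb, Myh11, Mylk, Qpct, Ifit3 and Ifit1 were lower in it.

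Some of these 14 genes are given as values. Ifit1 and Ifit3 are induced by interferon. Ifit1 had 101.4 scaled reads in culture 2 and 440.3 in culture 1, with 348 and 330.1 in WT. Ifit3 had 278.2 in culture 2 and 949.8 in culture 1, with 414 and 419.9 in WT. For both genes WT lay between the cultures. Myc, the growth-promoting transcription factor, had 3498 in culture 2 and 1110.3 in culture 1, with 1359.7 and 1381 in WT. Sod3, the extracellular superoxide dismutase, had 1006 in culture 2 and 208 in culture 1, with 392 and 393 in WT. WT lay between the cultures in these genes too, with culture 2 above it. S100b, a calcium-binding protein of glia and melanocytes, had 2536 in culture 2 and 5974 in culture 1, with 1905 and 1839 in WT. The joint comparison of clone 1 with WT called none of these 5 genes (limma adjusted p = 0.205 for S100b, 0.588 for Myc, 0.622 for Ifit1, 0.764 for Ifit3 and 0.861 for Sod3).

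Of the 378 genes called against WT, 21 differed between the cultures by 0.5 or more. That share was not counted over all genes tested, where the median size of the gap was 0.17. Some called genes with large gaps are given as values chosen after they were seen. Sparcl1 had 803 scaled reads in culture 2 and 2772 in culture 1 (culture 2 minus culture 1 -1.58), Pros1 had 422 in culture 2 and 833 in culture 1 (-0.76) and Cadm1 had 233 in culture 2 and 492 in culture 1 (-0.73). Those 3 fell against WT and were lower still in culture 2. Col11a1 had 706 in culture 2 and 307 in culture 1 (0.88), and Adamtsl5 had 458 in culture 2 and 264 in culture 1 (0.55), so both were farther above WT in culture 2. Bap1 stood at 655 in culture 2 and 753 in culture 1 (-0.16).

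**Figure D5:**
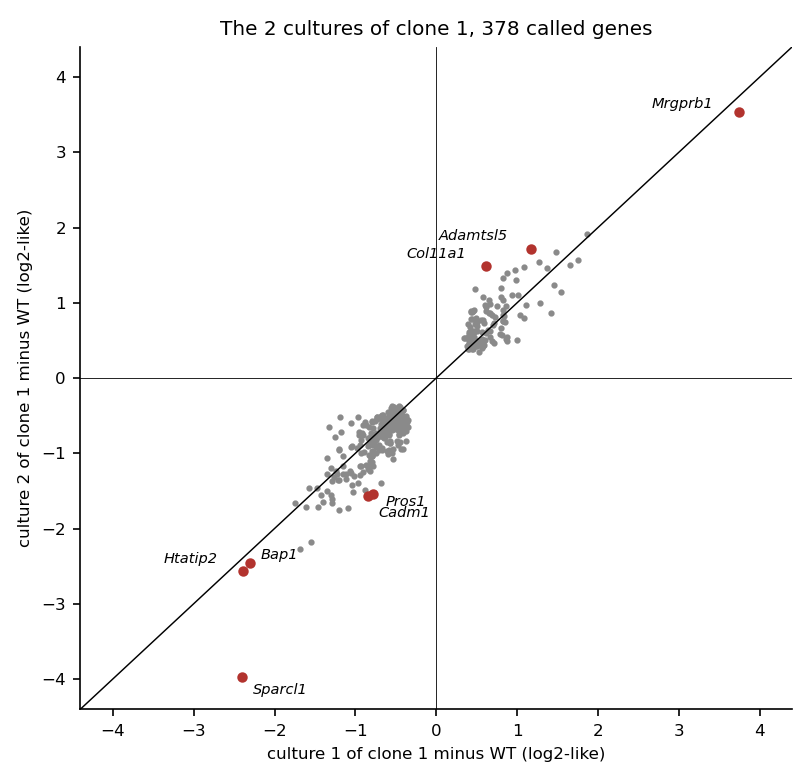
Each point is 1 of the 378 genes called in clone 1 against WT; the horizontal axis is culture 1 minus WT and the vertical axis culture 2 minus WT, on the deposited log2-like scale, and the diagonal marks equal differences. All points lie in the quadrants of equal sign, because both cultures of each called gene lay beyond both WT cultures. Sparcl1, Cadm1 and Pros1 lie below the diagonal.

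Short motifs in the promoters were counted as a description, for 99 genes that rose, 195 that fell and 8756 tested genes with a promoter in the RefSeq table, on both strands of the 300 bases around each start. The FOXK motif GTAAACA stood in 3.03% of promoters of genes that rose, 4.10% of those that fell and 2.95% of all. AAGATGG, the YY1 core, stood in 13.1% of those that rose, 4.10% of those that fell and 8.79% of all. TCATGTG, bound by MITF, stood in 6.06%, 1.54% and 2.72%, in the same order. The AP-1 motif TGANTCA stood in 7.07%, 5.64% and 5.60%, and the cAMP response element TGACGTCA in 2.02%, 1.54% and 3.78%. None of these motifs contains another. The numbers of genes behind the shares are small: 13 risers had the YY1 core and 6 the MITF motif.

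Called genes were spread over the genome. The share called was highest on chromosome 18 among the autosomes, 6.67% of 270 genes, with 1 higher and 17 lower, and the median difference there was -0.15. On every other autosome and on X the median lay between -0.06 and 0.07. Chromosome 10 had the highest median, with 13 genes higher and 5 lower of 526. Copy number was not measured in these libraries, and its part was not tested.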

How the data were processed

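Members, gene lists and genes named were chosen with earlier results of these data known. The authors deposited 1 table of variance-stabilised values, on a log2-like scale, of 13202 genes in 10 bulk libraries, with builds GRCm38 and mm10 per the submitters' processing notes; the aligner and the counter were not given in the sources used here. Libraries were stranded and polyA-selected per the labels' protocols. Whether counting used strand is not stated. RefSeq spans of further named genes overlap those of other genes, such as Zfp981 with Zfp993 (26547 bases) and Fam217b with Ppp1r3d (760 bases). Part of their reads may belong to the other gene. The log2 values as deposited invert to whole reads (within 0.01) that served for scaled reads, for limma-voom and for depth.

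The test was limma 3.58.1 (trend; R 4.3.3) over 10 libraries as 5 lines, for 10803 genes whose mean lay at least 1 above the lowest value (6.61), with Benjamini-Hochberg adjustment and a threshold of 0.05. A second fit made each culture of clone 1 its own group. Both were tested on simulated data, in which 14 unchanged genes were called in the first contrast. Named genes were Bap1, the 14 largest rises and falls with groups that do not overlap, the 8 farthest above and below the other clones, and up to 4 members of each list with the smallest adjusted p; predicted models were skipped. Genes next to Bap1, near 0, apart from every clone or different between cultures were added after their values were seen. Promoters are from RefSeq (GRCm38.p6; 8756 genes), and Python 3.11.15 read them. Intervals and floors cover counting error only. Alternatives were quantile normalization, limma-voom, other filters, no trend, the compared libraries alone, a replicate block and each library left out. Single-cell samples were not used here.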

Additional observations from a re-analysis of the deposited data

Results flagged for a closer look

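Results were taken up here because clone 1 and the other knockout clones, set against one another in the same limma contrast, differed past the threshold. The contrast called 2809 genes. Among the genes that were also called against WT, the differences farthest above the mean of clones 2, 3 and 4 were 2.93 ± 0.11 for Cd200r4, 2.68 ± 0.11 for Slc26a7, 2.61 ± 0.08 for Emb and 2.60 ± 0.09 for Serpine2. Next came Col14a1 (2.30 ± 0.13), Slc7a2 (2.14 ± 0.12), Ndrg1 (2.13 ± 0.09) and Apoe (2.05 ± 0.10). Those farthest below were -2.31 ± 0.13 for Mark1, -1.82 ± 0.10 for Htatip2, -1.74 ± 0.10 for Tmem151a and -1.46 ± 0.09 for Fam217b, followed by Kcnj4 (-1.42 ± 0.13), Sv2a (-1.35 ± 0.09), Ttc39c (-1.28 ± 0.11) and Psd2 (-1.28 ± 0.09). For Serpine2, Emb, Slc7a2 and Ndrg1 clone 1 lay between WT and the other clones, and for Htatip2 clone 4 was as low as clone 1. Groups of 2 cultures are too small for a search for single samples that stand apart.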

How the results depend on the processing

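Directions against WT held for the 119 named genes, none of which changed sign under the alternatives run. For most settings this was fixed in advance, since both cultures of each called gene lay beyond both WT cultures. Only quantile normalization and limma-voom changed the values themselves. Signs of uncalled genes, of single genes against the other clones and of culture gaps were not followed. The median of the pigmentation and melanosome list moved from -0.04 to 0 with quantile normalization. The balance of directions against the other clones was not stable, as given above. The 378 genes called in clone 1 against WT became 190 with the compared libraries alone and 214 with the stricter filter; other settings gave 383 (limma-voom), 385 (no trend), 457 (quantile normalization) and 502 (no filter). With 1 library left out the count was 57 to 639, the low end without WT replicate 1, so it rests on both WT cultures. Against the other clones 1010 to 3404 genes were called with 1 library left out. Between the cultures 0 to 14 genes were called, the 14 without either clone 2 library. Culture 1 against WT gave 82 with the stricter filter and 43 to 517 with 1 library left out, and culture 2 gave 233 and 100 to 1049. Leaving out a clone 1 culture gives no value between the cultures.

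Of 119 named genes, all called, 36 passed under every setting that tested them. The stricter filter tested only part of the 119: 77 passed and 12 lost their call there. Calls lost numbered 81 without WT replicate 1 and 79 without WT replicate 2, 54 without culture 2 of clone 1 and 27 without culture 1, 44 without either clone 3 library, 43 with the compared libraries alone, 12 with the stricter filter, 7 with quantile normalization and 2 with limma-voom. Of the 378 genes, 359 were also called with quantile normalization and 366 with limma-voom.

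Deviations of same-numbered libraries correlated by 0.73 (clones 1 and 2), 0.39 (2 and 3), 0.32 (1 and 4), 0.31 (1 and 3), 0.11 (2 and 4) and -0.03 (3 and 4), and each clone with WT by -0.13 to -0.07. Libraries of the clones thus deviated together in most pairs and those of WT did not, so the numbers were not taken to pair the samples. With a replicate block 616 genes were called in clone 1 against WT (225 higher, 391 lower), the 378 among them, and 3499 against the other clones.

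In a simulated comparison of clone 1 with WT 83 of 100 genes changed 2-fold were recovered, and a lone culture was assumed to vary like the other lines.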

Other observations

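Housekeeping and stress lists that held no called gene against WT had medians on opposite sides of 0 in the 2 cultures of clone 1. For the cytosolic ribosomal proteins the median difference from WT was 0.27 in culture 2 and -0.15 in culture 1, over 52 genes. For the unfolded protein and amino acid stress responses it was 0.24 in culture 2 and -0.14 in culture 1, and for the MAPK feedback genes 0.37 in culture 2 and -0.16 in culture 1. The type I interferon-stimulated genes ran the other way, with -0.30 in culture 2 and 0.28 in culture 1 over 14 genes. The cultures share the WT libraries and no test was made of these medians.

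Etv4, an ETS factor, had 24 and 75 reads in clone 1, against 3 and 9 in WT, a ratio of 8.03 (95% interval 4.4 to 16.1, counting error only), and was not called (limma adjusted p = 0.504). Its cultures were 17.7 and 84.5 scaled reads, against 2.9 and 7.9 in WT. Otog, which encodes a glycoprotein of the inner ear, had 958.4 scaled reads in culture 2 and 148 in culture 1, with 250.6 and 246.5 in WT, and Dpys, an enzyme of pyrimidine breakdown, had 336.7 in culture 2 and 61.1 in culture 1, with 51.5 and 58.1 in WT.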
